A study of Arabidopsis thaliana with 35 samples.

Results

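The nuclear photosystem and light-harvesting genes of Arabidopsis thaliana were described here as 1 module and by complex. The 42 members were taken by their AGI locus codes (the gene identifiers of this species) out of 28775 genes in the count table, and no measured value entered the rule. They fall into 6 sets: 9 genes of the major antenna of photosystem II (LHCII: LHCB1.1 to LHCB1.5, LHCB2.1 to LHCB2.3 and LHCB3), 5 of its minor antenna (LHCB4.1 to LHCB4.3, LHCB5 and LHCB6), 6 of the photosystem I antenna (LHCI: LHCA1 to LHCA6), 12 of photosystem I itself (PSA genes), 5 of the oxygen-evolving complex (PSBO, PSBP and PSBQ genes) and 5 other photosystem II subunits (PSBR, PSBS, PSBW, PSBX and PSBY). All 42 passed the filter on low counts, which left 21115 genes for testing.

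RNA was sequenced from shoot apices, here the shoot apical meristem together with the bases of the leaves and the axillary meristems they hold. Plants were Col-0 wild type (WT) and the clf swn double mutant (cs), which lacks CURLY LEAF and SWINGER, the catalytic subunits of Polycomb Repressive Complex 2 (PRC2) in vegetative tissue. PRC2 places the repressive mark H3K27me3 on histone H3, and the study asked how it limits the embryo-forming response of vegetative tissue to auxin and wounding. Seedlings of both genotypes were 14 days old and had grown in long days on medium with sucrose. In the combined treatment (WA; cs-WA and WT-WA, 3 libraries each), explants were cut from the seedlings and kept for 55 h with 5 µM 2,4-D, a synthetic auxin. In the auxin treatment (A; cs-A and WT-A, 3 each), intact seedlings received 5 µM 2,4-D for 55 h. In the wounding treatment (W; cs-W and WT-W, 3 each), explants were kept for 55 h with the solvent DMSO, and in the mock treatment (M; cs-M and WT-M, 3 each) intact seedlings received DMSO for 55 h. Untreated plants (ctrl) were taken at 0 h, 6 libraries of cs-ctrl and 5 of WT-ctrl, in 2 sets labelled C0 and C1 that share the replicate numbers 1 to 3, so their n exceeds the 3 experiments behind them. The cs plants were double mutants picked by their phenotype from the segregating progeny of clf/+ swn/- parents.

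Libraries held 11375703 to 18094983 counted reads (median 14665511), and 3 counts corresponded to 0.166 to 0.264 CPM (read counts scaled to library size, with TMM factors). CLF stood at 0.805 to 1.81 CPM in the cs libraries and at 29.7 to 53.8 CPM in the WT libraries, and SWN at 19.5 to 34.3 CPM in cs and 38.7 to 66.5 CPM in WT, so no library went against its genotype label. The meristem genes STM and KNAT1 were read in every library, at 46.87 CPM or more. A gene was called where edgeR's quasi-likelihood test, with p-values adjusted over all 21115 genes by the Benjamini-Hochberg method, gave an adjusted p below 0.05 and the log2 fold change was at least 0.6 in size. Adjusted p-values below come from that model.

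Photosystem II splits water and photosystem I reduces ferredoxin, and plastocyanin carries electrons into photosystem I on the inner side of the thylakoid. Chlorophyll-binding LHC proteins surround both reaction centres and pass excitation energy to them. The reaction-centre cores are encoded in the plastid, whereas the antenna proteins and most peripheral subunits are encoded in the nucleus. Transcription of these nuclear genes is known to need light, functional plastids and the GLK transcription factors, and the LHC genes also follow the circadian clock.

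The promoters of the 3 genes for CP29, the LHCB4 antenna protein that links LHCII to the photosystem II core, are shown because these genes behaved differently from each other. The promoter of LHCB1.3 is shown as that of the member with the highest level. Each runs from 250 bases before to 50 bases after the annotated start (RefSeq, build TAIR10.1, plus strand): LHCB4.1 at chr5:208616-208915, LHCB4.2 at chr3:2717307-2717606, LHCB4.3 at chr2:16745378-16745677 and LHCB1.3 at chr1:10477635-10477934. Capitals mark any of 5 motifs searched on both strands: GATAAG (the I-box core), CACGTG (the G-box), CCAATC, AAAATATCT (the evening element) and AAAAATCT (a site of the clock protein CCA1). Matches of different motifs may share letters.
LHCB4.1: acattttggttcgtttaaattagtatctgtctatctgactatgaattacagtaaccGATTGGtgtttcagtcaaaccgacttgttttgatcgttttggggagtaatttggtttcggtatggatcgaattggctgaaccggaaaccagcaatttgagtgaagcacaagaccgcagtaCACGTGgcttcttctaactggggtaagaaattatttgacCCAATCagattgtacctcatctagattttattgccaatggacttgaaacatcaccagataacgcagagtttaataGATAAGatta
LHCB4.2: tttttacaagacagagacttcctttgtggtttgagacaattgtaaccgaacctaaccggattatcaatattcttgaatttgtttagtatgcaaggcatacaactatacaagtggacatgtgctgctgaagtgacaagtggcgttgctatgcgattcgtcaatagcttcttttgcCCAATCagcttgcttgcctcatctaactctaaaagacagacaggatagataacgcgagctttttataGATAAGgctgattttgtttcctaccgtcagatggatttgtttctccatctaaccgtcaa
LHCB4.3: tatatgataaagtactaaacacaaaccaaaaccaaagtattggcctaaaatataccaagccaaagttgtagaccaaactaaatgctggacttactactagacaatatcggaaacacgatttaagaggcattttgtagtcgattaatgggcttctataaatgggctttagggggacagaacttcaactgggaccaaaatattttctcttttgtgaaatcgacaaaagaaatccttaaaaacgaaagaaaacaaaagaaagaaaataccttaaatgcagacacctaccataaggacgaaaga
LHCB1.3: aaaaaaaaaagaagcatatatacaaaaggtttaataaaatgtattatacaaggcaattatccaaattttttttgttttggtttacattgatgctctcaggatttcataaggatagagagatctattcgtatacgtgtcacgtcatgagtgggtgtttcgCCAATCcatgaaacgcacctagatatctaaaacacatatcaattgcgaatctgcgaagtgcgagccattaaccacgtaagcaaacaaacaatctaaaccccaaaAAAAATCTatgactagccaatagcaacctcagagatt

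LHCB4.1 held GATAAG at +40, CACGTG at -74 and CCAATC at -194 (read on the minus strand, as GATTGG) and at -35 relative to the start. LHCB4.2 held GATAAG at -9 and CCAATC at -76, LHCB1.3 held CCAATC at -91 and AAAAATCT at +13, and the LHCB4.3 window held none of the 5. Over the 42 members, 17 windows held GATAAG (40.5%, against 14.7% of 27561 promoters of the same length), 14 held CACGTG (33.3% against 7.65%) and 15 held CCAATC (35.7% against 12.4%). AAAAATCT was in 6 (14.3% against 7.88%) and AAAATATCT in 1 (2.38% against 2.81%). At least 1 of the 5 motifs was in 33 members (78.6%), against 37.9% of all promoters. By complex, GATAAG was in 8 of 12 photosystem I genes, 3 of 5 minor antenna genes and 1 of 9 LHCII genes. CACGTG was in 4 of 5 genes of the oxygen-evolving complex and 1 of 9 LHCII genes. CCAATC was in 3 of 5 genes each of the minor antenna and the oxygen-evolving complex, 5 of 9 LHCII genes, 3 of 6 LHCI genes, 1 of 12 photosystem I genes and none of the 5 other photosystem II genes. A match is a description of the letters and not of a bound site.

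The module took the largest share of reads in untreated wild type and the smallest in wild type after the combined treatment. The share of counted reads on the 42 genes was 1.22% ± 0.218 in cs-WA and 0.390% ± 0.0131 in WT-WA (SD, n = 3 each), 1.57% ± 0.421 in cs-A and 0.645% ± 0.126 in WT-A (n = 3 each), and 1.64% ± 0.199 in cs-W and 1.87% ± 0.351 in WT-W (n = 3 each). It was 1.33% ± 0.0774 in cs-M and 2.21% ± 0.266 in WT-M (n = 3 each), and 1.399% ± 0.114 in cs-ctrl (n = 6) and 3.96% ± 0.593 in WT-ctrl (n = 5). The cs groups thus lay between 0.979% and 2.03% in any library, while the WT libraries ran from 0.375% to 4.80%. The ranges of the genotypes did not overlap in WA, A, M or untreated plants, with cs above WT in WA and A and below it in M and untreated plants, and they overlapped in W.

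**Figure D1:**
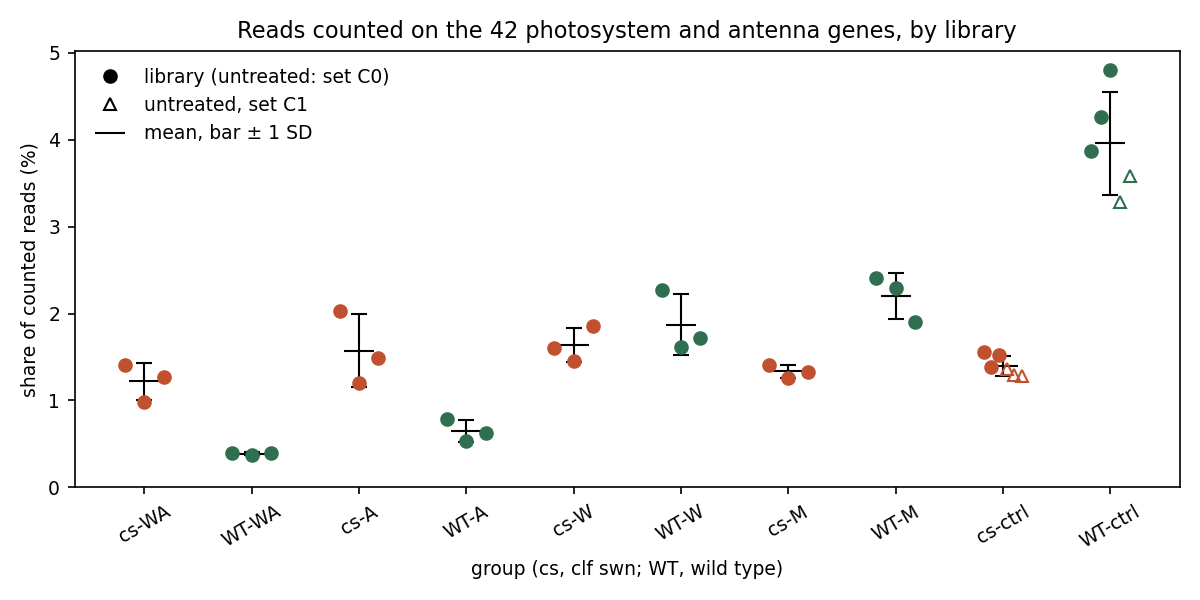
Share of counted reads on the 42 genes (y axis, percent) in each library, by group (x axis; circles, libraries, with open triangles for untreated set C1; lines and bars, mean ± 1 SD). The 18 cs libraries all lie between 0.979% and 2.03%, whereas the WT libraries reach down to 0.375 to 0.399% in WA.

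Most members shared the highest and the lowest group. By mean CPM, 40 of the 42 were highest in WT-ctrl and 40 were lowest in WT-WA. The exceptions at the top were LHCB4.3 (highest in cs-W) and LHCA5 (highest in WT-M), and those at the bottom were LHCB1.4 and LHCB1.5 (lowest in cs-ctrl). LHCA5 and LHCA6 are low-level LHCI-type proteins that join photosystem I to the chloroplast NADH dehydrogenase-like complex.

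**Figure D2:**
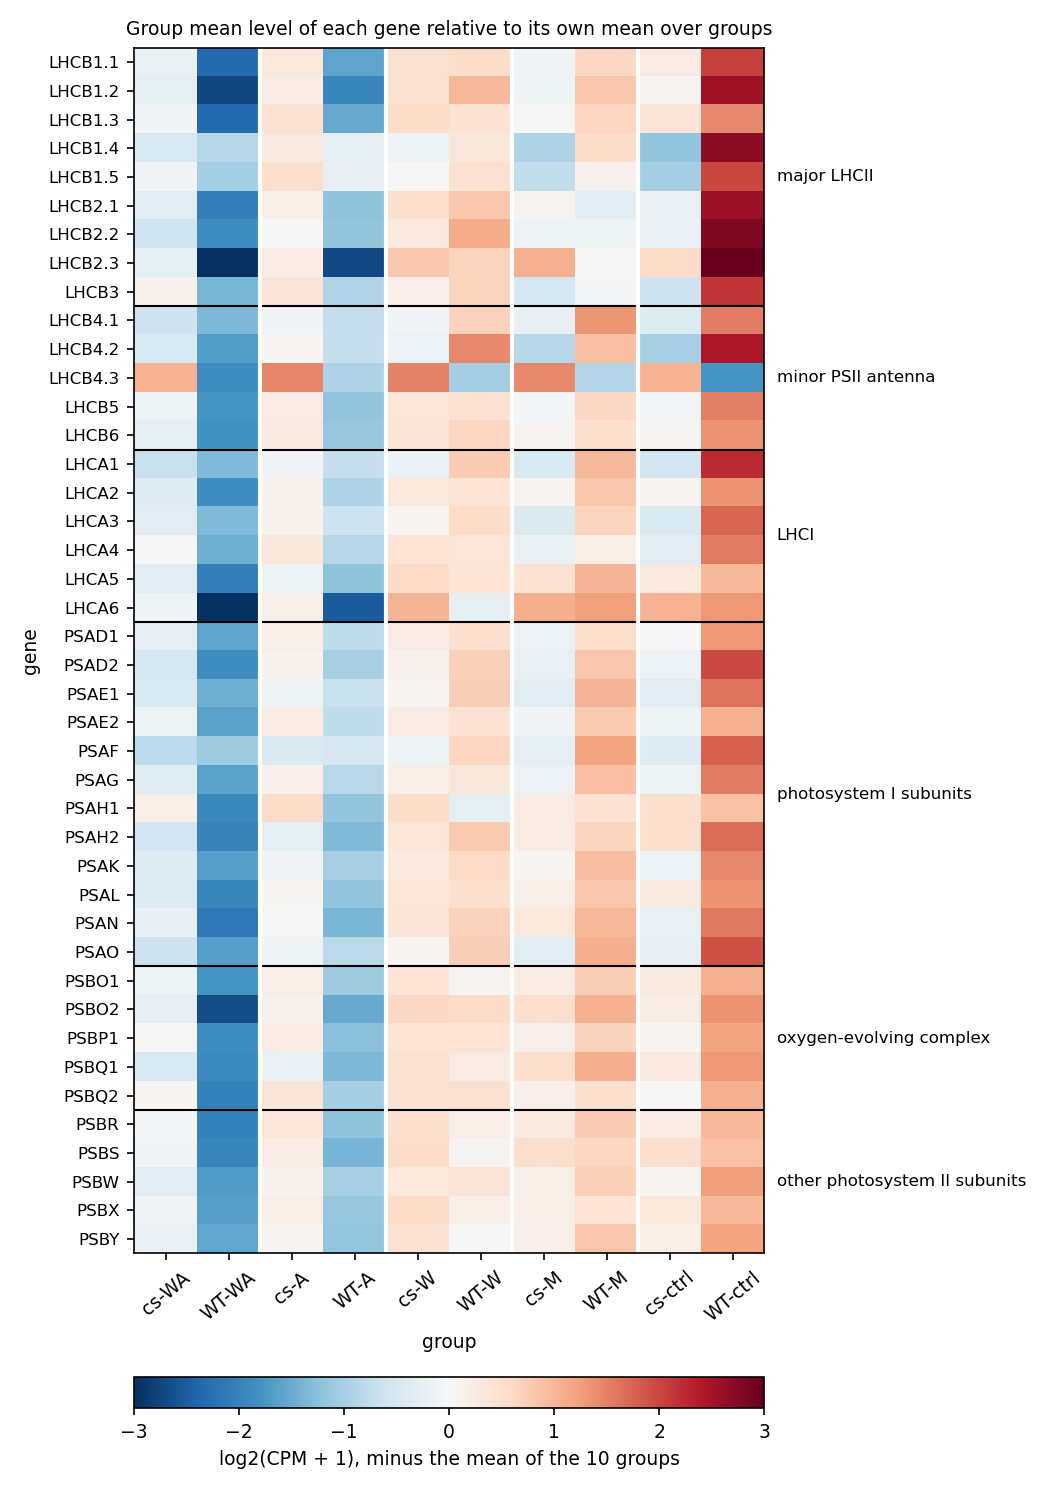
Mean log2(CPM + 1) of each member (rows, by complex) in each group (columns), minus that gene's mean over the 10 groups; the colour scale is clipped at -3 and 3. WT-ctrl is the highest column for 40 genes and WT-WA the lowest for 40, and the LHCB4.3 row is higher in cs than in WT in every treatment, untreated plants included.

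Divided by exon length in kilobases, levels in WT-ctrl spanned a wide range. LHCB1.3 had the highest mean level per length, 5622 CPM per kb, followed by LHCB1.5 (1630), LHCB1.2 (1477), LHCA4 (1440), LHCB1.1 (1336) and LHCB5 (1284). PSAO, PSBR and PSBO1 led the other complexes with 1134, 1119 and 1114 CPM per kb. LHCB4.3 (8.489), LHCA6 (27.55), LHCA5 (62.21) and LHCB2.3 (74.68) were the lowest. Some members share long stretches of sequence: the coding sequences of LHCB1.1, LHCB1.2 and LHCB1.3 were 95.6 to 96.4% identical. Those of the LHCB2 genes were 64.0 to 77.7% identical, with gaps counted as differences between sequences of unequal annotated length. The coding sequence of LHCB2.1 has 954 bases and that of LHCB2.2 has 798, and 741 bases were identical. Of the 50-base words of the LHCB1 genes, LHCB2.1 and LHCB2.2, 10.6 to 29.5% recurred elsewhere in the genome, as did 11.4% of those of LHCA2. As the study kept uniquely aligned reads, values of single LHCB1 genes and of LHCB2.1, LHCB2.2 and LHCA2 are uncertain, while LHCB2.3 held no such repeated word. Genes on the opposite strand covered 53.3% of the exons of PSAH1, 40.6% of those of LHCB2.3, 24.8% of those of PSAH2 and 15% of those of LHCB3, and a kit that does not mark strand cannot tell such reads apart.

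The first question was how wild-type apices responded to the treatments. After the combined treatment all 42 members fell in WT-WA against WT-M, where 25% of all tested genes fell and 23.0% rose. The WA, A and W groups of a genotype were compared with the same mock libraries. The median log2 fold change was -2.52 for the 42 genes and 0.00 for all genes tested. In all 42 the 3 WT-WA libraries lay below the 3 WT-M libraries, a separation that was not counted over all genes. Medians by complex were -1.77 for LHCII, -2.41 for the minor antenna, -2.50 for LHCI, -2.55 for photosystem I, -2.56 for the oxygen-evolving complex and -2.43 for the other photosystem II subunits. In a bulk sample, fewer cells of a type and less RNA per cell cannot be told apart.

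The member of each complex with the highest mean CPM over all libraries showed the size of the drop. LHCB1.3 (AT1G29930), the main LHCII gene, had 489.2, 486 and 540.8 CPM in WT-WA and 4521, 4123 and 3308 CPM in WT-M (log2 fold change -2.98, SE 0.20, adjusted p = 2.3e-13). LHCB5 (AT4G10340), which encodes the minor antenna protein CP26, had 185, 172.8 and 192.4 CPM in WT-WA and 1076, 1019 and 823.9 CPM in WT-M (log2 fold change -2.41, SE 0.20, adjusted p = 1.5e-11). No library of WT-WA came near the mock range for either gene. LHCA4 (AT3G47470), 1 partner of an antenna dimer of photosystem I, had 249.1, 235.6 and 194.3 CPM in WT-WA and 899.5, 718.5 and 537.8 CPM in WT-M (log2 fold change -1.67, SE 0.27, adjusted p = 4.6e-06). PSAL (AT4G12800), a subunit at the side where LHCII docks on photosystem I, had 96.01, 90.53 and 116.3 CPM in WT-WA and 727.9, 742.4 and 618 CPM in WT-M (log2 fold change -2.79, SE 0.14, adjusted p = 2.8e-16). The SE was larger for LHCA4 than for PSAL, and it rests on each gene's spread over all 10 groups, not on the mock libraries alone. PSBO1 (AT5G66570), the main gene for the protein that stabilises the manganese cluster, had 226.3, 225.4 and 242.5 CPM in WT-WA and 1368, 1406 and 1219 CPM in WT-M (log2 fold change -2.52, SE 0.15, adjusted p = 9.1e-15). PSBR (AT1G79040), a small subunit of photosystem II, had 103.7, 105.6 and 112.4 CPM in WT-WA and 747.1, 880.3 and 644.8 CPM in WT-M (log2 fold change -2.82, SE 0.15, adjusted p = 1e-15).

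The largest drops were those of low-level members. LHCB2.3 (AT3G27690) had 0.3263, 0.2527 and 0.1234 CPM in WT-WA (5, 4 and 2 counts) and 16.66, 11.71 and 8.778 CPM in WT-M (log2 fold change -5.68, SE 1.05, adjusted p = 2.5e-05). LHCA6 (AT1G19150) had 0.8485, 0.5054 and 0.7406 CPM in WT-WA (13, 8 and 12 counts) and 28.4, 37.84 and 24.31 CPM in WT-M (log2 fold change -5.42, SE 0.39, adjusted p = 5.9e-13). LHCB4.3 (AT2G40100) changed least, with 9.007, 12.32 and 13.02 CPM in WT-WA and 22.95, 23.64 and 24.85 CPM in WT-M (log2 fold change -1.06, SE 0.19, adjusted p = 2.4e-05).

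2,4-D on intact seedlings lowered most of the module as well. In WT-A against WT-M, 37 of 42 fell (20.7% of all genes fell and 19.7% rose) with a median of -1.79. All 42 log2 fold changes were negative, but LHCB1.4, LHCB1.5, LHCB2.1, LHCB2.2 and LHCB4.3 did not pass. Most of those that did not pass were LHCII genes: 5 of 9 LHCII genes fell, 4 of 5 minor antenna genes, and all genes of LHCI, photosystem I, the oxygen-evolving complex and the other photosystem II subunits. Each gene's spread was estimated over all 35 libraries, and LHCB2.1 and LHCB2.2 differed 4.78-fold and 4.32-fold between the untreated sets of WT-ctrl. With its copies summed, LHCB2 had a log2 fold change of -1.07 (SE 0.5, adjusted p = 0.069). Their missed calls are therefore not read as a weaker response of LHCII. LHCB1.3 had 981.1, 747.5 and 951.9 CPM in WT-A (log2 fold change -2.16, SE 0.20, adjusted p = 1.7e-10). LHCA6 showed the largest change, with 2.236, 1.057 and 0.8697 CPM in WT-A (log2 fold change -4.45, SE 0.36, adjusted p = 1e-11), and LHCB4.3 the smallest, with 23.68, 24.85 and 20 CPM (log2 fold change -0.06, SE 0.19, adjusted p = 0.8). When wounding was added to 2,4-D, members fell further. In 41 of 42 the WT-WA libraries lay below the WT-A libraries, a separation that was not counted over all genes. In WT-WA against WT-A the median was -0.77, and 22 of 42 fell (4.79% of all genes fell and 1.25% rose). PSBO2, PSBQ2 and LHCA5 were among them, at -1.17, -1.01 and -0.93 on the log2 scale. This count was 12 without WT-A replicate 1, and with the replicate number as a block LHCB4.2 (adjusted p = 0.038), LHCA3 (0.04), PSAD2 (0.03) and PSAH2 (0.015) passed as well.

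Wounding alone changed few members. In WT-W against WT-M, 7 of 42 fell, or 16.7%, where 8.31% of all genes fell and 10.8% rose, and the median was -0.25. The 7 were LHCB4.1 (-0.64), LHCA5 (-0.60), LHCA6 (-1.57), PSAH1 (-0.70), PSBO1 (-0.66), PSBQ1 (-0.85) and PSBY (-0.82), all on the log2 scale. LHCA6 had 11.62, 11.17 and 7.792 CPM in WT-W, all below the mock libraries (log2 fold change -1.57, SE 0.28, adjusted p = 8.5e-05). The count was 12 without WT-W replicate 1 and 11 without WT-M replicate 3. LHCB2.1 and LHCB2.2 stood at the other end, with 221.9, 104.1 and 107.3 CPM of LHCB2.1 in WT-W and 100.7, 55.96 and 37.34 CPM in WT-M (log2 fold change 1.16, SE 0.50, adjusted p = 0.065). LHCB2.2 had 276.6, 140.8 and 147.2 CPM in WT-W and 122.8, 68.61 and 44.77 CPM in WT-M (log2 fold change 1.26, SE 0.51, adjusted p = 0.051). Neither passed without the replicate block, and both did with it (adjusted p = 0.048 for LHCB2.1 and 0.029 for LHCB2.2).

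Levels of other cell type markers also differed after 2,4-D, in both genotypes. The summed level of 3 epidermis markers (ATML1, PDF1 and FDH) was 155.1 to 212.9 CPM in WT-WA, 211.1 to 321 CPM in WT-A and 935.3 to 970.6 CPM in WT-M, and all 3 markers fell in WT-WA. The summed level of 4 root markers (WOX5, PLT1, PLT2 and RHD6) was 110.2 to 147.9 CPM in WT-WA, 66.3 to 75.73 CPM in WT-A and 2.61 to 2.768 CPM in WT-M, and all 4 rose in WT-WA. The summed shoot meristem markers stood at 113.4 to 131.9 CPM in WT-WA, 185.2 to 192.8 CPM in WT-A and 123.8 to 170.7 CPM in WT-M, and of the 4 tested, WUS and CUC2 fell in WT-WA and in WT-A and KNAT1 rose in WT-A. The summed guard cell markers stood at 3.095 to 6.419 CPM in WT-WA, 4.681 to 5.155 CPM in WT-A and 11.93 to 14.18 CPM in WT-M, and of the 2 tested, FAMA fell and MYB60 rose in both. The summed vascular markers stood at 54.5 to 66.77 CPM in WT-WA, 67.77 to 117.9 CPM in WT-A and 47.34 to 53.55 CPM in WT-M. In clf swn the root markers summed to 60.66 to 71.31 CPM in cs-WA and 3.206 to 3.838 CPM in cs-M. The epidermis markers summed to 585 to 668.5 CPM in cs-WA and 981.8 to 1057 CPM in cs-M. The vascular markers summed to 23.57 to 29.65 CPM in cs-WA and 59.45 to 62.87 CPM in cs-M. The shoot meristem markers summed to 237.1 to 263.1 CPM in cs-WA and 280.6 to 320.2 CPM in cs-M, and the guard cell markers overlapped. The part of these cell types in the module's drop in wild type was not tested.

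In clf swn the same treatments moved few members. In cs-WA against cs-M, 6 of 42 fell, or 14.3%, where 8.49% of all genes fell and 9.81% rose, and the median was -0.31: LHCA5 (-0.81), LHCA6 (-1.31), PSAH2 (-0.80), PSBO2 (-0.74), PSBQ1 (-0.96) and PSBS (-0.61). PSBS is the photosystem II protein that switches the antenna to heat dissipation in strong light. LHCB1.3 had 2538, 1930 and 2744 CPM in cs-WA and 2627, 2494 and 2610 CPM in cs-M (log2 fold change -0.10, SE 0.19, adjusted p = 0.73), so the groups overlapped. PSBO1 had 846.4, 594.2 and 742.2 CPM in cs-WA and 994.1, 875.8 and 932.6 CPM in cs-M (log2 fold change -0.36, SE 0.14, adjusted p = 0.052). PSAL had 331.2, 255 and 303.1 CPM in cs-WA and 467.7, 424.7 and 435 CPM in cs-M (log2 fold change -0.58, SE 0.13, adjusted p = 0.0011), a difference that passed the p threshold and stayed just short of the fold threshold. LHCA6 had the largest change that passed, with 12.78, 7.173 and 13.6 CPM in cs-WA and 30.14, 24.57 and 27.96 CPM in cs-M (log2 fold change -1.31, SE 0.28, adjusted p = 0.00072). Without cs-WA replicate 2, which had the lowest level of each of these 4 genes in its group, the count was 3. LHCB2.3 passed with the replicate block (log2 fold change -1.55, adjusted p = 0.029) and not without it (log2 fold change -1.45, SE 0.62, adjusted p = 0.078).

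With 2,4-D alone, 3 members rose and 3 fell in cs-A against cs-M, where 5.82% of all genes rose and 6.35% fell, and the median was 0.15. LHCB1.5 (log2 fold change 1.25, SE 0.44, adjusted p = 0.036), LHCB1.4 (log2 fold change 1.23, SE 0.39, adjusted p = 0.022) and LHCB4.2 (log2 fold change 0.92, SE 0.34, adjusted p = 0.048) rose, each with its highest value in cs-A replicate 1. LHCA6 (-0.97), PSBQ1 (-0.69) and LHCA5 (-0.62) fell. LHCB1.5 had 907.7, 373.2 and 514.2 CPM in cs-A and 235.2, 269.8 and 248.6 CPM in cs-M, and LHCA6 had 21.53, 8.29 and 12.49 CPM in cs-A and 30.14, 24.57 and 27.96 CPM in cs-M. Without cs-M replicate 1, or without cs-M replicate 3, 3 members were called, all lower in cs-A. Wounding called no member in cs-W against cs-M by edgeR, against 1.01% of all genes higher and 0.0568% lower, while 10 members had an unadjusted p below 0.05 and DESeq2 called 0. Of the 42 log2 fold changes 39 were positive, with a median of 0.29 and a highest value of 0.79 for LHCB1.4. The lowest was that of LHCB2.3 (log2 fold change -0.28, SE 0.60, adjusted p = 0.89). Wounding added to 2,4-D called no member in cs-WA against cs-A by edgeR (5.11% of all genes higher and 0.488% lower). There 19 members had an unadjusted p below 0.05, all 42 log2 fold changes were negative with a median of -0.41, and DESeq2 called 0. That median was -0.16 without cs-A replicate 1 and -0.57 without cs-A replicate 2. Members share the same libraries, so their signs and unadjusted p-values, here and for cs-W, are not separate observations. These counts are given without the share of all genes and are not read as a shift of the module. Up to 6 members were called when single libraries were left out: 6 without cs-A replicate 2, 3 without cs-WA replicate 1 and 1 without cs-A replicate 3.

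**Figure D3:**
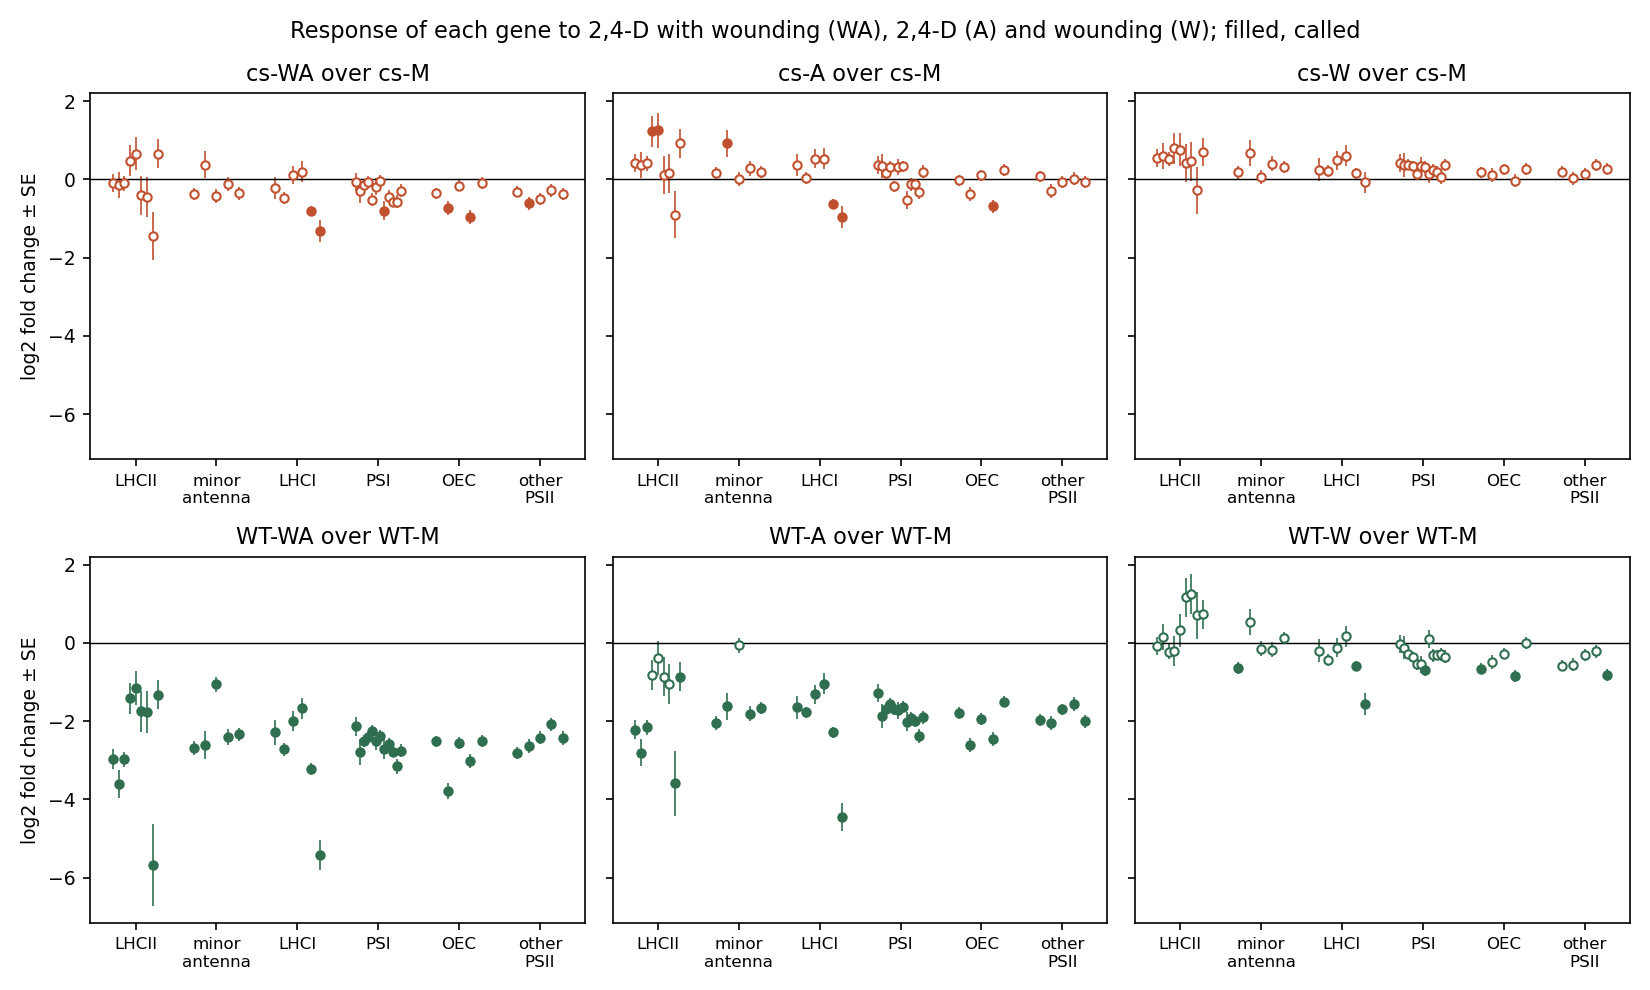
Log2 fold change (points) ± SE (bars) of each member against mock, by complex (x axis), for WA, A and W (columns) in clf swn (upper row) and wild type (lower row); filled points were called. For cs-WA over cs-M 6 points are filled, against all 42 for WT-WA over WT-M.

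The difference between the responses was then tested directly by the interaction of genotype and treatment, called at an adjusted p below 0.05. For WA, the response was higher in cs than in WT for 40 of 42 members (24.4% of all genes, with 20.8% lower), with a median difference of 2.22 on the log2 scale. LHCB2.1 and LHCB2.2 did not pass. With its copies summed, LHCB2 had a difference of 1.34 with a wide SE of 0.71 (adjusted p = 0.13), so these missed calls are not read as an equal response. The difference was 2.88 (SE 0.27, adjusted p = 1.4e-09) for LHCB1.3, 2.50 (SE 0.20, adjusted p = 8.6e-11) for PSBR, 4.11 (SE 0.49, adjusted p = 8e-08) for LHCA6 and 4.23 (SE 1.33, adjusted p = 0.01) for LHCB2.3. For LHCB4.3 it was the smallest that passed, 0.64 (SE 0.26, adjusted p = 0.049). For A, the response was higher in cs for 39 of 42 members (23.9% of all genes, with 20.8% lower), with a median difference of 1.86, and LHCB2.1, LHCB2.2 and LHCB4.3 did not pass. LHCA6 had the largest difference (3.48, SE 0.45, adjusted p = 3.9e-07) and LHCB4.3 the smallest (0.07, SE 0.26, adjusted p = 0.85). For W, it was higher in cs for 14 members (33.3%, against 8.67% of all genes, with 6.39% lower), with a median difference of 0.59. These were 6 of photosystem I, 3 of LHCI, 2 of the oxygen-evolving complex, 2 other photosystem II subunits and LHCB4.1. No LHCII gene passed by edgeR, 1 of the 9 having an unadjusted p below 0.05. The W count was 8 without cs-W replicate 3 and 9 without each of cs-M replicate 2, WT-M replicate 2 and WT-W replicate 3. With the replicate block LHCB1.3 (adjusted p = 0.03), PSAL, PSBP1, PSBS and PSBX passed as well.

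The next question was how clf swn and wild type differed within each treatment. Before treatment the module was lower in the mutant: in cs-ctrl against WT-ctrl, 38 of 42 fell and 1 rose, where 20.4% of all genes fell and 13.6% rose, and the median was -1.43. LHCII showed the largest median (-2.76, 9 of 9 fell), followed by photosystem I (-1.66, 11 of 12), LHCI (-1.57, 5 of 6) and the minor antenna (-1.55, 4 of 5). The oxygen-evolving complex (-1.06, 5 of 5) and the other photosystem II subunits (-0.75, 4 of 5) were lower by less. These medians pool the untreated sets C0 and C1, which differed widely for some LHCII genes in wild type. LHCB2.1 averaged 739 CPM in C0 and 155 CPM in C1 of WT-ctrl, and 87.4 and 55.5 CPM in cs-ctrl. Medians by complex were not computed for each set alone, so their order and size may depend on the set. LHCB1.4 had the largest difference, with 22.51 to 50.62 CPM in cs-ctrl and 303.6 to 843.9 CPM in WT-ctrl (log2 fold change -3.90, SE 0.31, adjusted p = 6e-12). PSAF (AT1G31330), at which plastocyanin docks, had 231.7 to 272.5 CPM in cs-ctrl and 1062 to 1232 CPM in WT-ctrl (log2 fold change -2.19, SE 0.12, adjusted p = 7.7e-16). Neither gene overlapped between genotypes. LHCA6 (log2 fold change -0.26, SE 0.20, adjusted p = 0.27) and PSBS (log2 fold change -0.38, SE 0.12, adjusted p = 0.01) were not called, and PSAH1 (log2 fold change -0.40, SE 0.11, adjusted p = 0.0022) passed the p threshold but not the fold threshold. LHCB4.3 was the member that rose.

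After 55 h of mock treatment fewer members differed, with 22 lower and 1 higher in cs-M against WT-M (17.1% of all genes lower and 14.4% higher) and a median of -0.64. Photosystem I held 10 of the 22, among them PSAF (log2 fold change -1.45, SE 0.16, adjusted p = 9.3e-09), PSAO (-1.41) and PSAE1 (-1.34). LHCB4.2 was the lowest of all (log2 fold change -1.77, SE 0.34, adjusted p = 9.5e-05). After wounding, 6 members were lower and 3 higher in cs-W against WT-W (16.5% of all genes lower and 14.8% higher), with a median of -0.16. The 6 were LHCB4.1 (-0.75), LHCB4.2 (-1.64), LHCA1 (-0.97), PSAE1 (-0.68), PSAF (-0.77) and PSAO (-0.69), and the 3 were LHCB4.3 (2.57), LHCA6 (1.35) and PSAH1 (0.83). PSAD2 was lower with the replicate block (adjusted p = 0.048) and not without it (0.093).

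With 2,4-D the sign turned. In cs-A against WT-A, 37 of 42 members were higher, where 23.5% of all genes were and 22.8% were lower, and the median was 1.21. In cs-WA against WT-WA, 38 of 42 were higher, where 23.4% of all genes were and 19.8% were lower, and the median was 1.49. In 40 of the 42 every cs-WA library lay above every WT-WA library, a separation that was not counted over all genes. LHCB1.3 had 2538, 1930 and 2744 CPM in cs-WA and 489.2, 486 and 540.8 CPM in WT-WA (log2 fold change 2.25, SE 0.20, adjusted p = 8.1e-11). PSBR had 492.5, 357.9 and 436.8 CPM in cs-WA and 103.7, 105.6 and 112.4 CPM in WT-WA (log2 fold change 2.00, SE 0.15, adjusted p = 1.6e-12). LHCA6 had 12.78, 7.173 and 13.6 CPM in cs-WA and 0.8485, 0.5054 and 0.7406 CPM in WT-WA (log2 fold change 3.98, SE 0.40, adjusted p = 1.1e-09). All 3 genes were separated between the genotypes. PSAF stood apart, with 235, 144.6 and 188.2 CPM in cs-WA and 155, 146.6 and 168.1 CPM in WT-WA (log2 fold change 0.27, SE 0.16, adjusted p = 0.13), and it was likewise not called in cs-A against WT-A (log2 fold change 0.07, SE 0.15, adjusted p = 0.71). LHCB1.4 (0.41, adjusted p = 0.37), LHCB1.5 (0.93, adjusted p = 0.063) and LHCA1 (0.65, adjusted p = 0.055) did not pass in WA either, although LHCB1.5 and LHCA1 did with the replicate block (adjusted p = 0.049 for both). Of the 42 members, 34 were lower in cs-ctrl against WT-ctrl and higher in cs-WA against WT-WA, and 33 were lower untreated and higher in A. The share of all genes with both calls was not counted, so these counts have no background beside them.

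**Figure D4:**
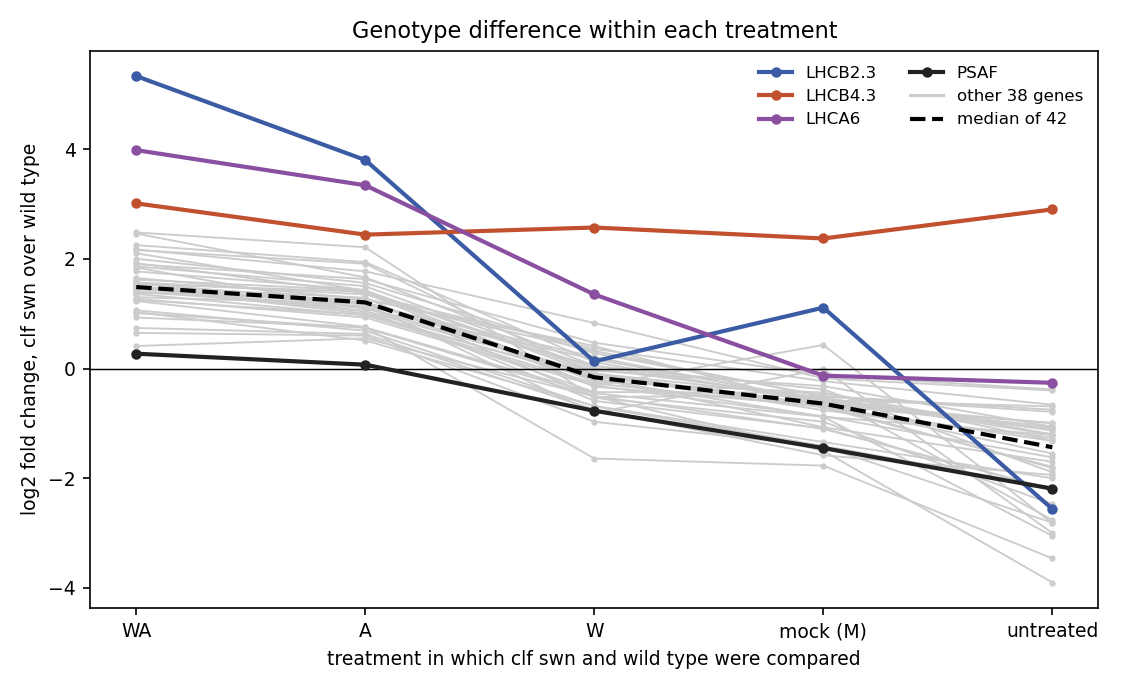
Log2 fold change of clf swn over wild type (y axis) for each member within each treatment (x axis), with LHCB2.3, LHCB4.3, LHCA6 and PSAF in colour or black and the median of the 42 dashed. The median is 1.49 in WA, 1.21 in A, -0.16 in W, -0.64 in M and -1.43 in untreated plants, while LHCB4.3 stays between 2.37 and 3.01.

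Some marker sets of other tissues also differed between the genotypes. In untreated plants the summed level of 5 embryo maturation markers (OLEO1, CRU1, CRU3, SESA1 and LEC1) was 12900 to 21870 CPM in cs-ctrl and 21.79 to 69.25 CPM in WT-ctrl, and all 5 rose. The summed shoot meristem markers stood at 225.7 to 275.5 CPM in cs-ctrl and 122.4 to 164.5 CPM in WT-ctrl, and the guard cell markers at 1.628 to 2.771 CPM in cs-ctrl and 7.617 to 13.36 CPM in WT-ctrl. The other sums overlapped in untreated plants. Epidermis markers stood at 1038 to 1269 CPM in cs-ctrl and 1103 to 1316 CPM in WT-ctrl, and vascular markers at 39.99 to 52.32 and 40.76 to 82.01 CPM. Root markers stood at 3.954 to 6.83 CPM in cs-ctrl and 2.732 to 4.191 CPM in WT-ctrl. In WA the epidermis markers summed to 585 to 668.5 CPM in cs-WA and 155.1 to 212.9 CPM in WT-WA, and the root markers to 60.66 to 71.31 CPM in cs-WA and 110.2 to 147.9 CPM in WT-WA. There the embryo maturation markers summed to 12760 to 18900 CPM in cs-WA and 32.03 to 42.55 CPM in WT-WA. In the same order, shoot meristem markers summed to 237.1 to 263.1 and 113.4 to 131.9 CPM, and vascular markers to 23.57 to 29.65 and 54.5 to 66.77 CPM. Guard cell markers summed to 1.005 to 1.688 and 3.095 to 6.419 CPM. Whether these tissues take part in the differences of the module was not tested.

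The 3 genes for CP29 separated clearly. Their products have 290 (LHCB4.1, AT5G01530), 287 (LHCB4.2, AT3G08940) and 276 residues (LHCB4.3), and the coding sequences were 81.1% identical between LHCB4.1 and LHCB4.2 and 65.4% between LHCB4.1 and LHCB4.3. LHCB4.3 was higher in cs in all 5 comparisons of the genotypes, and no other member was. It had 80.31 to 106.9 CPM in cs-ctrl and 8.354 to 18.35 CPM in WT-ctrl (log2 fold change 2.90, SE 0.15, adjusted p = 4.1e-16), and 89.19, 79.57 and 107.5 CPM in cs-WA and 9.007, 12.32 and 13.02 CPM in WT-WA (log2 fold change 3.01, SE 0.20, adjusted p = 2e-13). The differences in M, A and W were 2.37, 2.44 and 2.57. LHCB4.1 had 294.6 to 365.8 CPM in cs-ctrl and 1028 to 1480 CPM in WT-ctrl (log2 fold change -1.94, SE 0.12, adjusted p = 2.1e-14), and 343, 236 and 301.3 CPM in cs-WA and 169.3, 171.4 and 187.6 CPM in WT-WA (log2 fold change 0.74, SE 0.16, adjusted p = 0.00023). LHCB4.2 had 40.94 to 69.61 CPM in cs-ctrl and 407.2 to 791.3 CPM in WT-ctrl (log2 fold change -3.46, SE 0.26, adjusted p = 2.4e-12), and 103.8, 50.51 and 73.25 CPM in cs-WA and 41.77, 27.8 and 27.53 CPM in WT-WA (log2 fold change 1.23, SE 0.34, adjusted p = 0.0027). LHCB4.1 and LHCB4.2 were thus lower in cs untreated and higher in WA, and LHCB4.3 was higher in both. Per exon length, LHCB4.3 made up 18.45% ± 2.19 of the LHCB4 level in cs-ctrl (SD, n = 6) and 0.628% in WT-ctrl, 21.35% in cs-M and 1.698% in WT-M, 19.24% in cs-A and 6.226% in WT-A, 18.97% in cs-W and 1.978% in WT-W, and 19.58% in cs-WA and 5.015% in WT-WA.

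**Figure D5:**
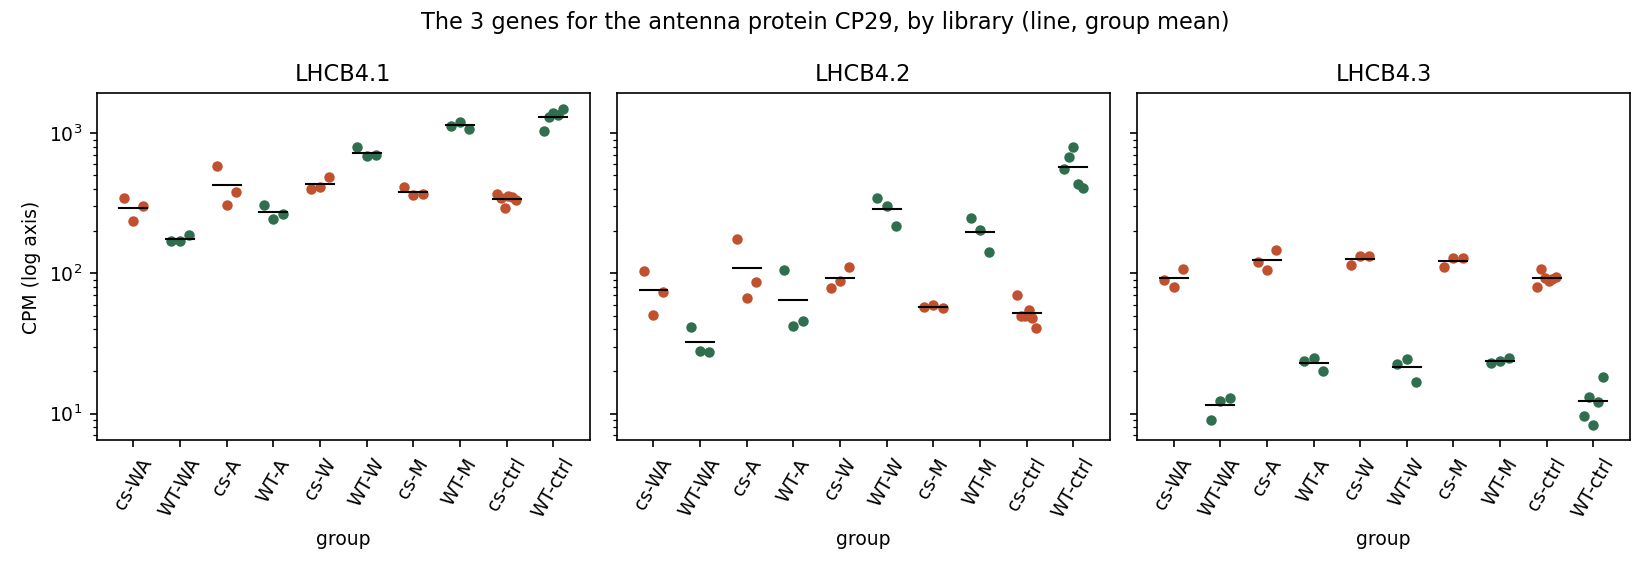
CPM of LHCB4.1, LHCB4.2 and LHCB4.3 (panels; y axis, log scale) in each library, by group (points, libraries; lines, group means). LHCB4.3 lies at 79.57 CPM or more in every cs library and at 24.85 CPM or less in every WT library, whereas LHCB4.1 and LHCB4.2 are lower in cs-ctrl than in WT-ctrl.

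The LHCB1 and LHCB2 families showed unequal changes among their copies. LHCB1.3 made up 75.67% of the LHCB1 level per length in cs-ctrl and 54.65% in WT-ctrl, 68.3% in cs-WA and 55.4% in WT-WA, and 69.03% in WT-M. The share of LHCB1.5 was 26.73% in WT-WA and 26.04% in WT-A, against 9.123% in WT-M, and was 13.05% in cs-WA, against 8.299% in cs-M. LHCB1.5 had 261.8, 207.8 and 155.6 CPM in WT-WA and 677.6, 429.5 and 283.4 CPM in WT-M (log2 fold change -1.15, SE 0.44, adjusted p = 0.022), the second smallest change among LHCII and the minor antenna. LHCB1.1, LHCB1.2 and LHCB1.3 lie side by side on chromosome 1 (10472280 to 10479114), as neighbours within 1 cluster. With the 5 copies summed before the fit, LHCB1 fell by 2.70 on the log2 scale in WT-WA against WT-M and was higher by 1.98 in cs-WA against WT-WA, and the summed LHCB2 fell by 1.87 in WT-WA against WT-M.

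Among the paired subunit genes, PSBO2 fell more than PSBO1. PSBO2 had 21.67, 19.96 and 25.24 CPM in WT-WA and 282.1, 337.5 and 300.1 CPM in WT-M (log2 fold change -3.78, SE 0.20, adjusted p = 8.5e-16), and its share of the PSBO level per length was 9.846% in WT-WA, 12.86% in WT-A and 20.76% in WT-M, and 15.98 to 20.04% in the cs groups. The share of PSBQ2 within PSBQ was higher with 2,4-D than in mock. It was 53.18% in WT-WA, 60.68% in WT-A and 44.44% in WT-M, and 63.86% in cs-WA, 65.13% in cs-A and 49.31% in cs-M. PSBQ2 itself overlapped between cs-A (537.5, 333.9 and 462.2 CPM) and cs-M (373.4, 356.2 and 399 CPM). PSAH1, 1 of 2 genes for the subunit at which mobile LHCII binds, took 48.05% of PSAH in cs-WA, 49.58% in cs-A and 34.51% in cs-M, and 35.42% in WT-WA, 19.82% in WT-W and 30.46% in WT-M. PSAD and PSAE form the stromal ridge where ferredoxin docks. PSAE2 took 56.65 to 60.22% of PSAE in the cs groups and 43.57 to 51.78% in the WT groups, and PSAD1 took 78.57 to 81.13% of PSAD in the cs groups and, in wild type, 81.52% in WT-WA, 73.94% in WT-M and 68.56% in WT-ctrl. These shares are descriptions and were not tested.

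Part of the module was also lower in wild type after 55 h of mock treatment than at 0 h. In WT-M against WT-ctrl, 21 members fell and 1 rose, where 1.16% of all genes fell and 0.805% rose, and the median was -0.62. All 9 LHCII genes fell, with a median of -2.16, as did 6 photosystem I, 3 LHCI and 3 minor antenna genes. LHCB2.3 fell by 3.15, LHCB2.1 by 2.97 and LHCB2.2 by 2.94 on the log2 scale, and LHCB4.3 rose (log2 fold change 0.95, SE 0.17, adjusted p = 0.0017). In the oxygen-evolving complex and the other photosystem II subunits the medians were -0.34 and -0.35. In cs-M against cs-ctrl edgeR called no member (0.881% of all genes higher and 0.114% lower), 3 had an unadjusted p below 0.05, DESeq2 called 0, and the median was 0.05.

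The wild-type mock result depended on which untreated set it was compared with. LHCB2.1 had 696.1, 646.9 and 875.2 CPM in WT-ctrl set C0 and 149.6 and 160.0 CPM in set C1, a ratio of the means of 4.78, and the ratios for LHCB2.3, LHCB2.2 and LHCB3 were 4.74, 4.32 and 2.3. Every C0 library lay above every C1 library for 21 of the 42 members in cs-ctrl, where 13.9% of all genes did so, and for 20 in WT-ctrl, where 21.0% did so. Against C1 alone, 2 members were called in WT-M, against 24 with C0 alone. A fit of only the groups compared called 4, and leaving out WT-M replicate 3 left 11. PSAG fell with the replicate block (adjusted p = 0.022) and not without it (0.064). The clock gene CCA1 differed between the same libraries, with 0.844, 0.442 and 1.08 CPM in WT-M, 10.3, 4.8 and 5.92 CPM in C0 of WT-ctrl, and 0.985 and 0.492 CPM in C1. LHY, its partner, had 0.537 to 0.608 CPM in WT-M, 3.31, 1.03 and 5.43 CPM in C0, and 0.269 and 0.211 CPM in C1. In cs-ctrl the sets overlapped for CCA1, at 4.37 to 6.07 CPM in C0 and 4.17 to 6.03 CPM in C1. In cs-M, CCA1 stood at 9.88 to 11.9 CPM and LHY at 11.1 to 20.1 CPM, both above every WT-M library. CCA1 also split the WT-W libraries, at 9.08, 1.05 and 1.03 CPM, and WT-W replicate 1 had the highest LHCB2.1 and LHCB2.2 of its group. The part of time of day in these values, or in the comparisons and interactions that use the mock libraries of both genotypes, was not tested.

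Other genes of photosynthesis gave a context for the module. In WT-WA against WT-M, 18 of 19 Calvin cycle genes fell (median -3.60), all 19 genes of chlorophyll synthesis (-2.28), all 13 of electron transport and ATP synthase (-2.46) and all 10 of plastid ribosomes, chaperonins and protein import (-2.35). The corresponding counts in cs-WA against cs-M were 12 of 19 (-0.65), 11 of 19 (-0.75), 5 of 13 (-0.41) and 9 of 10 (-0.78), where 8.49% of all genes fell. RBCS1A, a small subunit of Rubisco, had 311 to 421 CPM in WT-WA and 4360 to 5510 CPM in WT-M (log2 fold change -3.78, SE 0.20, adjusted p = 1.2e-15), and 1850 to 2630 CPM in cs-WA and 3130 to 3710 CPM in cs-M (log2 fold change -0.58, SE 0.18, adjusted p = 0.017). RCA, the Rubisco activase, fell in both genotypes (log2 fold change -1.06, SE 0.18, adjusted p = 5.5e-05 in cs and log2 fold change -3.77, SE 0.20, adjusted p = 1.3e-15 in WT). GUN4 and CHLH of the magnesium chelatase step and HEMA1, which starts tetrapyrrole synthesis, had log2 fold changes of -0.52, -0.45 and 0.18 in cs-WA, where none passed, and fell in WT-WA by 2.28, 1.83 and 1.25 on the log2 scale.

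Of 17 regulators of the module, activators and repressors together, 13 fell and none rose in WT-WA against WT-M (median -1.20), and 5 fell and none rose in cs-WA against cs-M (median -0.61). HY5 (-0.40, adjusted p = 0.24), SIG5 (0.14, 0.82), PIF3 (-0.36, 0.096) and COP1 (-0.25, 0.058) were the 4 that did not pass in WT-WA. GLK1, which activates nuclear photosynthesis genes, had 2.72 to 3.58 CPM in WT-WA and 30.9 to 40.2 CPM in WT-M (log2 fold change -3.57, SE 0.30, adjusted p = 1.7e-11), and 13.9 to 21.1 CPM in cs-WA and 33.4 to 51.9 CPM in cs-M (log2 fold change -1.27, SE 0.26, adjusted p = 0.00034). Its partner GLK2 fell by 2.99 on the log2 scale in WT-WA, and its response differed between genotypes (difference 1.89, SE 0.41, adjusted p = 0.00039). CGA1, a GATA factor that promotes chloroplast development, had 0 to 0.123 CPM in WT-WA and 6.79 to 11.3 CPM in WT-M, and 5.96 to 7.03 CPM in cs-WA and 5.34 to 11.3 CPM in cs-M (log2 fold change -0.22, SE 0.29, adjusted p = 0.61). Its response differed between genotypes by 7.19 (SE 0.66, adjusted p = 7.8e-10), a fitted value that depends on how counts near 0 are treated. In untreated plants GLK1 did not pass the test: it had 48 to 75.1 CPM in cs-ctrl and 36.2 to 81 CPM in WT-ctrl (log2 fold change 0.05, SE 0.18, adjusted p = 0.84). In the same comparison 9 of 19 Calvin cycle genes, 10 of 19 of chlorophyll synthesis and 8 of 13 of electron transport fell, where 20.4% of all genes fell. NYE1, which acts in chlorophyll breakdown, rose in cs-ctrl (log2 fold change 1.61, SE 0.21, adjusted p = 1.1e-07).

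Genes encoded in the plastid, whose transcripts mostly lack the long poly(A) tail that the library kit selects, showed another picture. Of 9 tested, 2 fell in WT-WA against WT-M, with a median of -1.46, and in WT-A against WT-M edgeR called 0 of them, with 0 at an unadjusted p below 0.05 and a median of 0.10. In cs-WA against WT-WA, 5 of the 9 were higher, where 23.4% of all genes were.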

How the data were processed

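Messenger RNA of shoot apices was sequenced with a poly(A) kit that does not mark strand. Per the labels and methods, the authors trimmed reads with Trimmomatic 0.32, aligned them to TAIR10 with TopHat2 2.0.10, kept unique alignments, counted reads per gene with HTSeq and deposited raw counts for 35 libraries. Of these counts, 11375703 to 18094983 a library fell on genes.

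Counts were fitted in 1 model of 10 groups (residual df 25) with edgeR 4.0.16 in R 4.3.3: TMM scaling, filterByExpr (21115 of 28775 genes), quasi-likelihood F tests and Benjamini-Hochberg adjustment over all 21115 genes. A call needed an adjusted p below 0.05 together with a change of 0.6 or more on the log2 scale, whereas the study asked for 0.6 between any pair of replicates (an alternative here); interactions needed the p alone. CPM are on TMM-scaled library sizes. The scripts were tested on simulated data. Alternatives were DESeq2 1.42.0, other scalings and filters, the replicate number as a block, the contrast's groups alone, other call rules, each untreated set alone, and each library left out; sums of the LHCB1 and LHCB2 families were added after seeing the data. Counting error is the only error that the 3-count floor of 0.166 to 0.264 CPM covers.

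A replicate number marks an experiment run at another time, with its libraries in 1 lane, so the numbers pair the samples by design. Deviations from group means of same-numbered libraries correlated at a median of 0.1 over genes (84 pairs), against -0.05 for other numbers (168 pairs), and 22 of 24 libraries were closest to their own number. The model reported has no term for the number, and the untreated groups (n = 6 and 5) hold up to 2 libraries of each of 3 experiments, so p-values measure the spread between libraries.

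The members, the lists and the tests were chosen with earlier results of these data known. All members are covered; values per library are given for the highest member of each complex, for isoform sets, for the largest and smallest change in a comparison and for members called against the rest. Promoters and exon lengths come from RefSeq on TAIR10.1 (Python 3.11.15, Biopython 1.88).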

Additional observations from a re-analysis of the deposited data

Results flagged for a closer look

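Of 86 checks for a single library that stood apart within a group of 4 to 10, 2 met the criterion, and chance gives about 1 in 20. PSAL had 857.2 CPM in WT-ctrl set C0 replicate 1, where the nearest other untreated WT library had 1009 CPM and the highest 1068 CPM. LHCB2.3 had 31.56 CPM in cs-ctrl set C0 replicate 1, where the nearest other untreated mutant library had 18.57 CPM and the lowest 11.77 CPM.

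The response to a treatment differed between clf swn and wild type, by edgeR's interaction test at an adjusted p below 0.05, for 40 members after WA, 39 after A and 14 after W. The member with the largest difference was LHCB2.3 for WA (4.23 on the log2 scale), LHCA6 for A (3.48) and LHCA6 for W (1.49). LHCB2.3 rested on 5, 4 and 2 counts in the WT-WA libraries, which the SE of 1.33 reflects.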

How the results depend on the processing

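Over 18 comparisons, 289 alternative counts of called members stayed within 1.5 times of the value reported and 27 did not, while all 286 alternative medians moved by less than the spread between replicates and none of the tests reversed a called member. For 173 called values, each of 1 gene in 1 comparison, 2790 alternative values were computed, and 136 of these lost the call.

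Calling by the adjusted p alone gave 14 in WT-W against WT-M (7 as reported), 12 in cs-WA against cs-M (6) and 4 in cs-WA against cs-A (0). The study's stricter rule, a log2 ratio of at least 0.6 between any pair of libraries, gave 2 in WT-W against WT-M, 0 in cs-A against cs-M (6), 3 in cs-WA against cs-M, 9 in WT-M against WT-ctrl (22), 12 in cs-M against WT-M (23), 19 in cs-A against WT-A (37), 3 in cs-W against WT-W (9) and 3 in WT-WA against WT-A (22). In WT-M against WT-ctrl, untreated set C1 alone gave 2 and the contrast's groups alone gave 4. Leaving out single libraries gave 5 to 12 in WT-W against WT-M, 3 to 9 in cs-WA against cs-M, 0 to 6 in cs-WA against cs-A, 3 to 4 in cs-A against cs-M, 11 to 23 in WT-M against WT-ctrl, 12 to 28 in WT-WA against WT-A and 8 to 20 for the interaction with W (14). Fewer samples, or a stricter rule, are part of how these alternatives are built, and for the others the cause was not tested.

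With the replicate block, calls were gained and none lost: LHCB2.1 and LHCB2.2 in WT-W against WT-M (adjusted p = 0.048 and 0.029), LHCB2.3 in cs-WA against cs-M (0.029), LHCB1.5 and LHCA1 in cs-WA against WT-WA (0.049 each), and those named beside the other results. The pairing moved no count by more than 1.5 times. Depth limits LHCB2.3 and LHCA6 in WT-WA, at 2 to 13 counts a library. In cs-W against WT-W the median was -0.28 to 0.04 with single libraries left out, so its sign is not fixed.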
